A study of Mus musculus with 2 samples.

Results

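The genes described here code for the subunits of the respiratory chain and ATP synthase, and fall into a mitochondrial arm, transcribed from mitochondrial DNA, and a nuclear arm. They were chosen by symbol: mt-Nd, mt-Co, mt-Cyt and mt-Atp for the mitochondrial arm, and Ndufa, Ndufb, Ndufc, Ndufs, Ndufv, Sdh, Uqcr, Cox4, Cox5, Cox6, Cox7, Cox8 and Atp5 for the nuclear arm. Of the 24014 gene symbols in the count tables, 110 matched, 13 in the mitochondrial and 97 in the nuclear arm. The nuclear members comprised 36 symbols placed with complex I, 4 with complex II, 8 with complex III, 20 with complex IV and 17 with complex V, plus 8 assembly factors of complex I and 4 of complex II. Of the 97, 93 had at least 200 UMIs (unique molecular identifiers, each marking 1 captured RNA molecule) over both libraries, while Cox7b2 and Cox8b were listed only in the chow table and Cox8c only in the high-fat table.

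The study profiled single bone marrow cells of wild type male mice, strain C57B/6, on the BD Rhapsody system, which captures cells with barcoded beads in microwells. One diet group received normal chow (ND) and the other a high-fat diet (HFD) with 60% fat, for 16 weeks. Each diet was represented by 1 library. The labels call the animals young, and state neither how many animals went into a library nor any sort or gate. With 1 library per diet, no test over samples exists: diet, animal and library preparation cannot be told apart, and every interval below covers counting error only.

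Complexes I to IV pass electrons from NADH and succinate to oxygen and, except complex II, pump protons across the inner mitochondrial membrane, and complex V uses the proton gradient to make ATP. Complexes I, III, IV and V are built from products of both genomes, so each needs transcripts of both arms, whereas complex II is wholly nuclear. Mitochondrial genes are transcribed as long polycistronic RNAs that are cleaved into single messengers. Mature neutrophils are known for few mitochondria and a reliance on glycolysis, and erythroid precursors for a high mitochondrial demand during haem synthesis.

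The promoters of the nuclear arm were taken from RefSeq (build GRCm38.p6), which had an entry for 80 of the 97 nuclear members and for none of the 13 mitochondrial genes. Each sequence covers 300 bases, 250 before to 50 after the gene's start. Letters known as binding motifs of regulators of respiratory genes were searched on both strands. GCGCANGCG, a form of the motif of nuclear respiratory factor 1 (NRF1), was found in 24 of the 80 members (30%) and in 7.03% of all 27025 genes of the table. CCGGAAG, the core of ETS family motifs, which include that of GABP (NRF2), was found in 21 members (26.25%) and in 9.93% of all genes. AAGATGGCG, the core of the YY1 motif, was found in 8 members (10%) and in 1.64% of all genes. CCAATC, an extended form of the CCAAT box, was found in 19 members (23.75%) and in 18.2% of all genes. Among 69 genes of mitochondrial ribosomal proteins (Mrpl and Mrps) the shares were 23.2% for the NRF1 form and 37.7% for CCGGAAG. They were 11.6% for AAGATGGCG and 18.8% for CCAATC, so these motifs are not particular to the respiratory members. The 5 promoters below belong to nuclear members named in the comparisons. Uqcr11, Uqcrc1 and Ndufc1 were higher in the HFD library, Cox7a2 was lower, and the level of Atp5g1 differed widely between cell classes. Capitals mark a match to one of these motifs, and Cox7a2 held none of these letters in its window. The shorter CCAAT was not searched, and it occurs unmarked elsewhere in the Atp5g1 promoter. A match describes the letters and was not tested as a binding site.
Uqcr11 (chr10:80406772-80407071, minus strand): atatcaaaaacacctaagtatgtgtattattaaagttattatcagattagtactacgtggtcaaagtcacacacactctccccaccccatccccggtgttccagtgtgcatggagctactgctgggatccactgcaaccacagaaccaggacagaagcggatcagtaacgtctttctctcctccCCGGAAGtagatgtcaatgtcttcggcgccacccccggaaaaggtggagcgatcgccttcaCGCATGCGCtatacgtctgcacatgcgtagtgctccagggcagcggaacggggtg
Uqcrc1 (chr9:108936398-108936697, plus strand): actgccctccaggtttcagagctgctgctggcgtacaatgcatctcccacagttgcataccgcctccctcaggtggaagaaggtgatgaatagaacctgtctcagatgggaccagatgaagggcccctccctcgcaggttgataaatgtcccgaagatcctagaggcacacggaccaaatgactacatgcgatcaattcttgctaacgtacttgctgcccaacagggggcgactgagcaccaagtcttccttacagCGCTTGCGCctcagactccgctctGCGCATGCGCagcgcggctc
Ndufc1 (chr3:51408906-51409205, minus strand): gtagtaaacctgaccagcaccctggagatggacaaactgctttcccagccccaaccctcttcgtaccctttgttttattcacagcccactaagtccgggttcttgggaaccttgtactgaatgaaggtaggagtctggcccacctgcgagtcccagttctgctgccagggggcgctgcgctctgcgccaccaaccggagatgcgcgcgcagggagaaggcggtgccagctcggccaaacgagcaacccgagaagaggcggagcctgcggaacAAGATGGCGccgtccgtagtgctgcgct
Cox7a2 (chr9:79759804-79760103, minus strand): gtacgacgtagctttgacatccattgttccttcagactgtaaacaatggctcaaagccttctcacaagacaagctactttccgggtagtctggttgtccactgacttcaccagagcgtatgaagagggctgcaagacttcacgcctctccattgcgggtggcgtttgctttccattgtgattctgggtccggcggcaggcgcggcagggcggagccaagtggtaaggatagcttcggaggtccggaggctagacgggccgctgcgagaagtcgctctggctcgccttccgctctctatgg
Atp5g1 (chr11:96075582-96075881, minus strand): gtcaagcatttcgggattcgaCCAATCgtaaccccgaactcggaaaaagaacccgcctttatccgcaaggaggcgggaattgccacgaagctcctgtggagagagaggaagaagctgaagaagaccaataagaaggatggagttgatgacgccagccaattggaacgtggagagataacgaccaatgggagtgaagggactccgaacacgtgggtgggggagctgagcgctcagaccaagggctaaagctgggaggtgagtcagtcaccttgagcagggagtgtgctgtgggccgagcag
The capitals mark CCGGAAG and, nearer to the start, the NRF1 form in Uqcr11, the NRF1 form in 2 stretches in Uqcrc1, AAGATGGCG in Ndufc1 and CCAATC in Atp5g1. The second stretch in Uqcrc1 holds overlapping matches on both strands, so that 3 matches were counted in that promoter. Both of these complex III genes held the NRF1 form, as did 30% of the 80 nuclear members and 7.03% of all genes. Ndufc1, also higher in the HFD library, did not hold it.

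The libraries held 16817 (ND) and 17282 (HFD) cells with 117999042 and 117773643 UMIs, a median of 3644 and 3625.5 per cell, and 329 cell indices occurred in both. The filter on genes and mitochondrial share passed 85.0% of the ND and 90.6% of the HFD cells. Without the limit on mitochondrial share it passed 88.1% and 92.8%. After filtering and removal of doublets, 13890 and 15214 cells remained. They were clustered without any member and without any mitochondrial gene, and 18 classes of at least 100 cells in each library were named from marker genes, each as "-like". Of the 30 clusters, 2 stayed unnamed. Levels of single members are given as CPM, the UMIs of the member per 1000000 non-mitochondrial UMIs of the class, and arm levels per 1000 of them. Because a UMI marks 1 molecule, levels were not divided by gene length.

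Across the classes the arms took different orders. Taken as whole classes, B cell-like cells held the highest mitochondrial level, with 10.4% of all UMIs in each library. Mature neutrophil-like cells held the lowest, with 1.23% (ND) and 1.22% (HFD). Per 1000 non-mitochondrial UMIs this was 116 and 116 in B cell-like cells against 12.5 and 12.3 in mature neutrophil-like cells, a 9.33-fold (ND) and 9.46-fold (HFD) range. The nuclear arm was highest in erythroid-like cells, at 29.1 and 29.5 per 1000, and lowest in mature neutrophil-like cells, at 6.17 and 5.52, a 4.72-fold and 5.33-fold range. Both arms thus had their lowest level in the same class, while their highest levels lay in different ones. Eosinophil-like cells and the mature neutrophil-like cells had median UMI counts of 2523.5 and 1679.5, and of 2734 and 2507, against 23312.5 and 18357 in erythroid-like cells. With every cell thinned to 1000 UMIs, mature neutrophil-like cells stood at 1.11% and 1.15% and B cell-like cells at 10.5% and 10.4% mitochondrial.

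**Figure D1:**
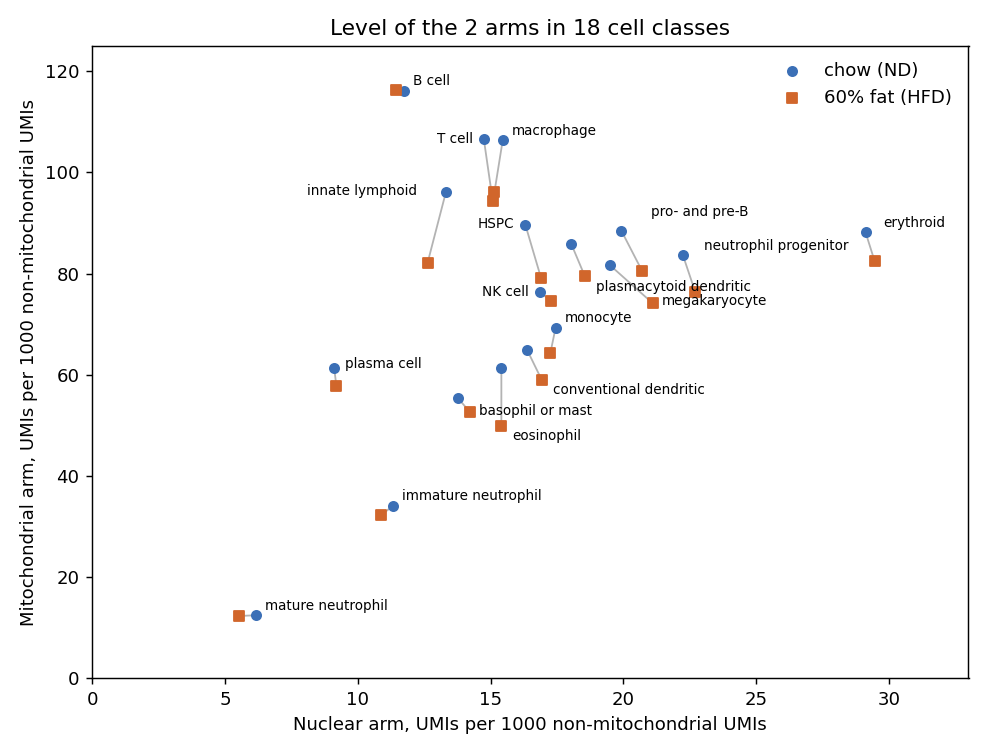
Level of the nuclear arm (horizontal axis) and of the mitochondrial arm (vertical axis), each in UMIs per 1000 non-mitochondrial UMIs, in the 18 cell classes, with a circle for the ND and a square for the HFD library of each class, joined by a line. B cell-like cells stand highest (116 in both libraries), erythroid-like cells farthest to the right (29.1 and 29.5), and mature neutrophil-like cells lowest on both axes.

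In the mitochondrial order, B cell-like cells were followed by macrophage-like (106 and 96.1 per 1000), T cell-like (107 and 94.3) and innate lymphoid-like cells (96.2 and 82.1). Within the macrophage-like class, cluster 19 stood at 132 and 124, above the B cell-like cells, and cluster 20 at 88.4 and 82.6. Cluster 19 was shallow, with median UMI counts of 937 and 926. From macrophage-like down to NK cell-like cells, 10 classes lay between 74.1 and 107, and each overlapped its next neighbour between the libraries. NK cell-like cells (76.3 and 74.6) were separated from monocyte-like cells (69.3 and 64.4), below which came conventional dendritic-like, plasma cell-like, eosinophil-like and basophil or mast-like cells. Immature neutrophil-like cells (34.1 and 32.3) and mature neutrophil-like cells were each separated from the class above by more than the difference between libraries. In the nuclear order, erythroid-like cells were followed by neutrophil progenitor-like (22.2 and 22.7), pro- and pre-B-like (19.9 and 20.7) and megakaryocyte-like cells (19.5 and 21.1), and the last pair did not differ beyond the libraries. Within the erythroid-like class, cluster 0 stood at 29.8 and 30.2, cluster 1 at 28.6 and 29.3, and cluster 16 at 9.79 and 7.01. The unnamed cluster 3 stood at 22.1 and 23.1. At the lower end of the class order came B cell-like (11.7 and 11.5), immature neutrophil-like (11.3 and 10.9) and plasma cell-like cells (9.11 and 9.20). The place of plasma cell-like cells depends on the scale. They held 94.5 and 96.2 nuclear UMIs per cell, against 25.8 and 23.4 in B cell-like cells. Of the 91 nuclear members with at least 200 UMIs in each library, 65 (71.4%) had their highest level in erythroid-like cells, against 16.7% of all 11312 such genes. Mature neutrophil-like was the class of lowest level for 73 members (80.2%), against 41.2% of all genes.

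The ratio of mitochondrial to nuclear UMIs put the classes in another order. It was 9.90 (ND) and 10.2 (HFD) in B cell-like cells, 7.22 and 6.50 in innate lymphoid-like, 3.03 and 2.80 in erythroid-like and 2.02 and 2.23 in mature neutrophil-like cells. Over the 18 classes the 2 arms' levels had a Pearson r of 0.67 in each library and a Spearman rho of 0.28 (ND) and 0.29 (HFD). Without the neutrophil stages and eosinophil-like cells, the 14 remaining classes gave an r of 0.13 and 0.06. These coefficients are descriptions, since the classes of a library share its preparation and its denominator. The filter at 25% mitochondrial UMIs acts on 1 arm directly: without it, 11.1% and 12.2% of erythroid-like and 12.2% and 7.49% of macrophage-like cells lay above the limit, and at most 3.02% in any other class.

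Within the mitochondrial arm, mt-Co1, the catalytic subunit of complex IV, took the largest share, 25.96% (ND) and 26.8% (HFD) of the arm. Its share was 22.9% and 22.4% in erythroid-like and 34.2% and 35.1% in mature neutrophil-like cells. mt-Co2, another core subunit of complex IV, took 13.9% and 13.7%, mt-Atp6 of the ATP synthase membrane part 12.1% and 11.7%, and mt-Cytb of complex III 10.6% and 10.7%. The shares of the complex I genes mt-Nd1 and mt-Nd2 also varied by class: mt-Nd1 ran from 5.25% and 4.81% in mature neutrophil-like to 10.1% and 10.3% in erythroid-like cells. mt-Nd2 ran from 4.48% and 4.38% in immature neutrophil-like to 10.6% and 9.69% in innate lymphoid-like cells. mt-Nd6, the one member coded on the other strand, took 0.036% and 0.035%. mt-Atp8 and mt-Atp6, mt-Nd4l and mt-Nd4, and mt-Nd5 and mt-Nd6 (on opposite strands) overlap in the GENCODE M21 annotation, and nuclear copies of mitochondrial DNA exist, so the split of reads among these genes is uncertain. Whether counting used strand is not stated in the sources used here.

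Between the diets the mitochondrial arm was lower in the HFD library in 17 of 18 classes, and the nuclear arm showed no common direction. Fewer ND than HFD cells had passed the filter (85.0% and 90.6%), and the part of cell quality in this difference was not tested. The class values of log2 HFD over ND had a median of -0.12 for the mitochondrial arm. The range ran from -0.30 in eosinophil-like to 0.002 in B cell-like cells. Eosinophil-like cells went from 61.4 per 1000 in the ND to 49.96 in the HFD library, innate lymphoid-like cells from 96.2 to 82.1 (-0.23), HSPC-like cells, the stem and progenitor class, from 89.6 to 79.2 (-0.18), and T cell-like cells from 107 to 94.3 (-0.18). NK cell-like cells were nearly level (-0.03), as were B cell-like cells, at 116 in both libraries, and mature neutrophil-like cells (-0.02). The signs in B cell-like and mature neutrophil-like cells turn with the processing: mature neutrophil-like cells stood at -0.48 without the filter on mitochondrial share and at 0.10 with a floor of 500 genes and a 15% limit, and B cell-like cells at -0.05 and -0.01. Under each filter the cells were clustered and named again, so class membership changed as well. Without the filter 829 (ND) and 1451 (HFD) cells were mature neutrophil-like, against 1102 and 1785 with it. The eosinophil-like cells also differed in depth, with a median of 2523.5 UMIs in the ND and 1679.5 in the HFD library. Thinned to 1000 UMIs they held 4.75% and 3.66% mitochondrial UMIs, with 9 and 58 shallower cells left out. Single eosinophil-like cells varied widely in mitochondrial share. The lower quartile was nearly alike, at 1.512% (ND) and 1.497% (HFD). The median was 3.33% and 2.38%, and the upper quartile 6.87% and 5.37%. The class values sum UMIs and so weigh deeper cells more. The part of cell makeup in the eosinophil-like difference was not tested.

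The nuclear arm's class values had a median of 0.02, with 11 classes above 0 and 7 below. The sign turned under some settings in classes near 0, most often in eosinophil-like and plasma cell-like cells. The median over all genes of a class had a median of 0.004 over the classes, so the nuclear arm lay close to the average gene. Megakaryocyte-like cells were highest, from 19.5 to 21.1 per 1000 (0.11). Mature neutrophil-like cells were lowest, from 6.17 to 5.52 (-0.16), and all 5 complexes had their lowest value there, from -0.20 for complex I to -0.11 for complex III. The log2 ratio of the mitochondrial to the nuclear arm was below 0 in 16 of 18 classes, with a median of -0.13, and stood at 0.14 in mature neutrophil-like cells. No class passed 1.5-fold for either arm.

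**Figure D2:**
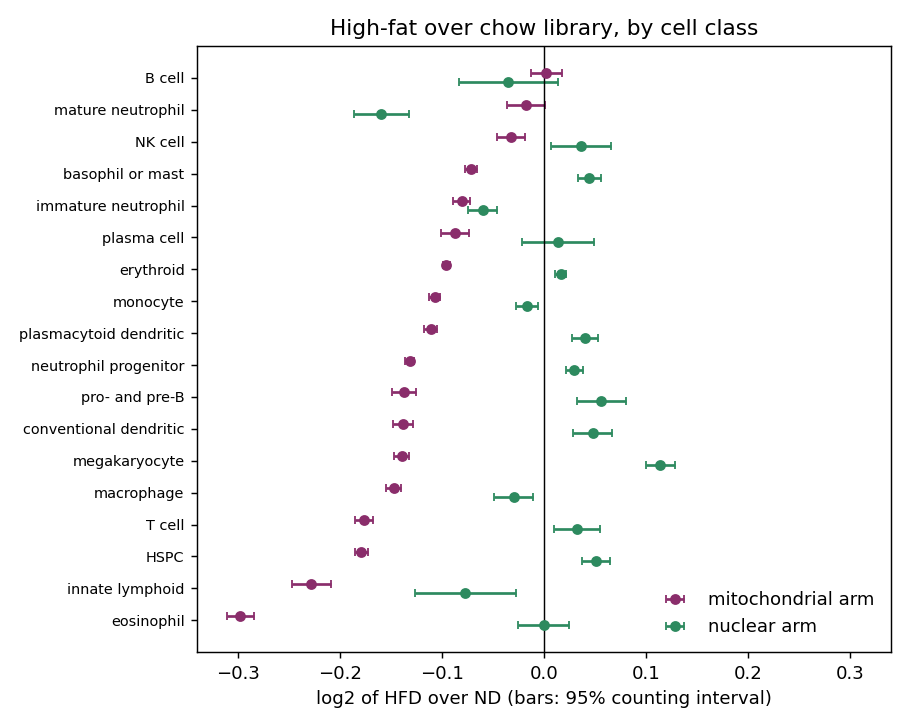
Log2 ratio of HFD over ND for the mitochondrial and the nuclear arm in each of the 18 cell classes, with bars for the 95% counting interval. The mitochondrial values run from -0.30 to 0.002 with a median of -0.12, and the nuclear values from -0.16 to 0.11 on both sides of 0.

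Several classes pool clusters whose shares differ between libraries, so the values were also taken by cluster. Among 28 clusters the mitochondrial arm was below 0 in 25 (median -0.10) and the nuclear arm in 11 (median 0.02). The exceptions for the mitochondrial arm were cluster 8 of the basophil or mast-like cells (0.02), cluster 24, the B cell-like cells (0.002), and cluster 29 of the mature neutrophil-like cells (0.10). Monocyte-like cells, at -0.11 as a class, gave -0.10 in cluster 4 and -0.01 in cluster 26, and macrophage-like cells, at -0.15, gave -0.09 in cluster 19 and -0.10 in cluster 20. Without the filter on mitochondrial share, and with the cells clustered and named again, the macrophage-like class stood at -0.39. Erythroid-like cluster 16, led by globin genes, stood at -0.68 for the mitochondrial and -0.48 for the nuclear arm, with median UMI counts of 1331 and 2648, while clusters 0 and 1 stood at -0.09 and -0.10 for the mitochondrial arm. The part of depth and of cluster makeup in these differences was not tested.

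The mitochondrial genes did not share 1 ratio. mt-Nd5, a membrane subunit of complex I, was below 0 in 18 of 18 classes with a median of -0.29, and mt-Nd4l, a small subunit of the same complex, also in 18 of 18 with a median of -0.29. mt-Atp8 of complex V (-0.21) and mt-Co2 (-0.14) were below 0 in all 18 as well. Relative to the median gene of each class, these 4 were below 0 in 18 of 18 classes too. By contrast, mt-Co3 had a median of -0.05, mt-Nd4 of -0.07, mt-Nd3 of -0.08, mt-Cytb of -0.10 and mt-Co1 of -0.10. Set against the other mitochondrial members within each class, mt-Nd5 (-0.21), mt-Nd4l (-0.18) and mt-Atp8 (-0.12) lay below the rest of their arm in 18 of 18 classes, and mt-Co1 above it in 15 (0.05). mt-Nd5, mt-Nd4l and mt-Atp8 each overlap another member in the annotation. Their split of reads is uncertain, and its part in these differences was not tested. mt-Nd6, with at least 200 UMIs in 7 classes, had a median of -0.13.

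mt-Nd5 stood at 3973 (ND) and 3027 (HFD) CPM in HSPC-like cells, 5215 and 4007 in T cell-like cells, and 5931 and 5391 in B cell-like cells, where its ratio was nearest to 0 (-0.14). In eosinophil-like cells it stood at 1479 and 921 (-0.68, 95% counting interval -0.78 to -0.59) and mt-Nd4l at 591 and 326 (-0.86, -1.01 to -0.71). These were the only 2 of 223 pairs of mitochondrial member and class past 1.5-fold lower, and none was past 1.5-fold higher. Over all genes 0.485% of pairs were past 1.5-fold lower and 0.946% higher, and within eosinophil-like cells 0.68% were lower. Both mitochondrial pairs thus rest on the eosinophil-like class, whose cells varied widely in mitochondrial share and differed in depth between the libraries. In neutrophil progenitor-like cells, which had like depth in both libraries (medians 21760.5 and 21992), mt-Nd5 went from 3022 to 2411 (-0.33) and mt-Nd4l from 1131 to 908 (-0.32). Among 2059 genes measured with at least 200 UMIs in 14 or more classes, 1 gene had a median below that of mt-Nd5, 2 below mt-Nd4l and 10 below mt-Atp8. Of the 2059 genes, 1.99% were below 0 in every class measured and 1.75% above. Of the 12 mitochondrial members among them, 4 were below 0 in every class, which were mt-Atp8, mt-Co2, mt-Nd4l and mt-Nd5. The members of the arm come from shared precursor RNAs and are not independent of one another.

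In the nuclear arm 3 of 1227 pairs of member and class were past 1.5-fold higher (0.946% of all pairs of gene and class were) and none was past 1.5-fold lower (0.485%). All 3 were Uqcr11, a small subunit of complex III: 76.3 (ND) and 119 (HFD) CPM in conventional dendritic-like cells (0.65), 131 and 198 in megakaryocyte-like cells (0.59), and 95.8 and 159 in pro- and pre-B-like cells (0.73). Over all genes, 0.784%, 1.72% and 0.748% were past 1.5-fold higher in these 3 classes. Uqcr11 was above 0 in all 16 classes with enough UMIs, with a median of 0.46, and 6 of the 2059 genes had a higher median. Its levels in erythroid-like cells were 318 and 414 (0.38, 0.33 to 0.43), from 7557 and 6633 UMIs, and in neutrophil progenitor-like cells 200 and 268 (0.43, 0.34 to 0.51). Its smallest difference was in macrophage-like cells, at 99.3 and 112 (0.17, -0.07 to 0.41). B cell-like cells, below the UMI minimum with 36 and 35 UMIs, stood at 65.1 and 55.3 CPM. No annotated exon of another gene overlaps Uqcr11 in GENCODE M21.

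Of the 62 nuclear members measured in 14 or more classes, 2 were above 0 in every class, Uqcr11 and Ndufc1, and 1 was below 0 in every class, Cox7a2. These shares, 3.23% and 1.61%, lie near the 1.75% and 1.99% over all 2059 genes. A common sign over the classes thus does not set the nuclear members apart from other genes. Ndufc1, an accessory subunit of complex I, had a median of 0.16 over 14 classes, with 159 and 192 CPM in neutrophil progenitor-like cells and 207 and 230 in erythroid-like cells. Cox7a2, a subunit of complex IV, had a median of -0.15 over 16 classes, with 282 and 263 CPM in neutrophil progenitor-like and 198 and 168 in immature neutrophil-like cells. Cox7c, another small subunit of complex IV, was above 0 in 16 of 18 classes (median 0.16), with 850 and 966 CPM in neutrophil progenitor-like cells. Relative to the median gene of each class, Cox7c was above 0 in 14 classes and below 0 in 4. Ndufa4, once counted with complex I and now with complex IV, was below 0 in 16 of 17 classes (median -0.16).

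The members with the highest medians, besides Uqcr11 and Ndufc1, rested on fewer classes. Uqcrc1, a core subunit of complex III, was above 0 in 8 of 8 classes (median 0.26), with 55.9 and 68.5 CPM in erythroid-like cells. Ndufaf8, an assembly factor of complex I, had a median of 0.25 over 4 classes, and Cox6a2 of 0.25 over 2. At the other end, Atp5s, named for a coupling factor of ATP synthase, had a median of -0.34 (5 of 5 classes below 0), the testis-type isoform Cox6b2 of -0.27 (8 of 8) and Sdhaf1, an assembly factor of complex II, of -0.21 (8 of 8). Sdhaf1 shares exon sequence on the opposite strand with E130208F15Rik, so its count is uncertain. Among the 2 most abundant nuclear members of each complex the medians lay between -0.06 and 0.16: Ndufa1 and Ndufa2 of complex I 0.07 each, Sdha 0.04 and Sdhd 0.15 of complex II, Uqcrb 0.05 and Uqcrh -0.06 of complex III, Cox7c 0.16 and Cox6a1 0.07 of complex IV, and Atp5a1 -0.01 and Atp5g3 0.07 of complex V. Complex III thus held members at both signs, with Uqcr11 and Uqcrc1 above 0 and Uqcrh below 0 in 14 of 18 classes.

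**Figure D3:**
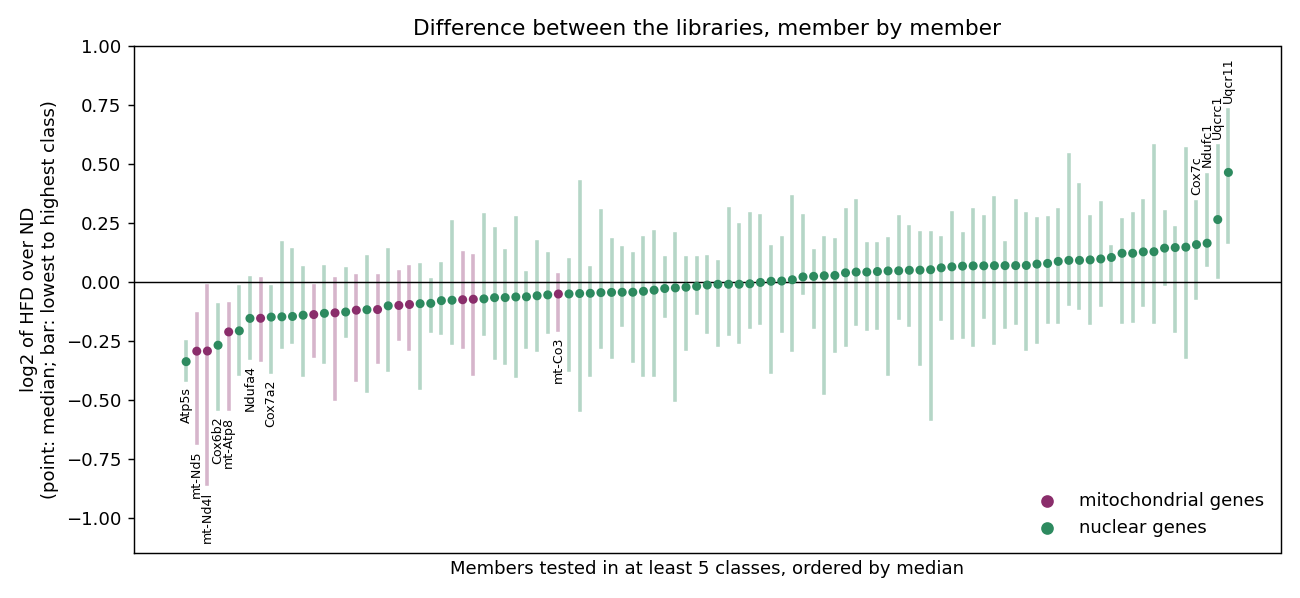
Log2 of HFD over ND for each member measured in at least 5 classes, ordered by the median over classes, with a point for the median and a bar from the lowest to the highest class. mt-Nd5 and mt-Nd4l (both -0.29) have the lowest medians among the mitochondrial genes, and Uqcr11 (0.46) has the highest median of all.

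The neutrophil series showed a step down in both arms. From neutrophil progenitor-like to mature neutrophil-like cells the mitochondrial arm went from 83.7 to 12.5 per 1000 in the ND and from 76.4 to 12.3 in the HFD library, 6.72-fold and 6.21-fold lower. The nuclear arm went from 22.2 to 6.17 and from 22.7 to 5.52, 3.61-fold and 4.11-fold lower. On the log2 scale the mean of the libraries was -2.69 for the mitochondrial and -1.94 for the nuclear arm. In UMIs per cell, mitochondrial UMIs went from 1686 to 36.05 (ND) and from 1570 to 32.8 (HFD), and nuclear ones from 448 to 17.9 and from 467 to 14.7. Immature neutrophil-like cells lay between, 2.45-fold and 2.37-fold below the progenitors for the mitochondrial and 1.96-fold and 2.09-fold for the nuclear arm.

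Of the 85 nuclear members with enough UMIs, 75 were at least 2-fold lower in mature neutrophil-like cells in both libraries and 0 were 2-fold higher, and all 13 mitochondrial members were lower. Over all 6880 genes measured, 52.5% were lower and 14.4% higher, with a median log2 of -1.26, against -2.16 for the nuclear and -2.97 for the mitochondrial members. The median cell had 21760.5 and 21992 UMIs among progenitors and 2734 and 2507 among mature neutrophil-like cells, and S100a8 and S100a9 took 0.437% and 0.554% of UMIs in progenitors and 14.9% and 14.99% in mature cells. Scaled by median of ratios, which shifts all values by 1.19 (ND) and 1.31 (HFD) toward higher in mature cells, 38 of the 85 nuclear members (33.3% of all genes) and 12 of the 13 mitochondrial members were 2-fold lower, mt-Co1 being the exception. The nuclear members' median was then -0.91, and none was 2-fold higher.

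In complex V, Atp5g1, one of 3 genes for the c subunit of the membrane ring, went from 579 (ND) and 661 (HFD) CPM to 21.0 and 20.6 (-4.89). Its paralogue Atp5g2 went from 871 and 873 to 53.9 and 55.1 (-4.0), and Atp5g3 from 902 and 959 to 108 and 94.6 (-3.20). The 3 genes code for the same mature protein with different import sequences. The complex I assembly factors Ndufaf2, from 53.4 and 58.7 to 0.314 and 2.73, and Ndufaf4, from 68.3 and 74.1 to 1.88 and 2.31, were near the level of a few UMIs in mature cells (1 and 13, and 6 and 11 UMIs). Ndufa12 (-4.27) and Ndufab1 (-4.14), the mitochondrial acyl carrier protein, were lowest among complex I members at over 200 CPM in progenitors.

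The 10 nuclear members that were not 2-fold lower were Atp5f1, Atp5l, Cox8a, Ndufa13, Ndufa3, Ndufa7, Ndufa8, Ndufb9, Sdhaf2 and Sdhb. Sdhb, the iron-sulphur subunit of complex II, stood at 51.8 and 54.4 CPM in progenitors and 42.6 and 38.9 in mature cells (-0.38). Ndufa13, also known as a cell death regulator, stood at 152 and 149 and at 128 and 105 (-0.38). Cox8a, the main isoform of the smallest complex IV subunit, stood at 648 and 677 and at 359 and 352 (-0.90). Subunits of a single complex thus differed widely: in complex II, Sdhc (-2.79) and Sdha (-2.20) lay well below Sdhb. Between progenitor-like and immature cells 41 of 87 nuclear members were 2-fold lower (34.2% of all genes) and 12 of 13 mitochondrial ones, and between immature and mature cells 37 of 70 (24.3%) and 12 of 12.

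**Figure D4:**
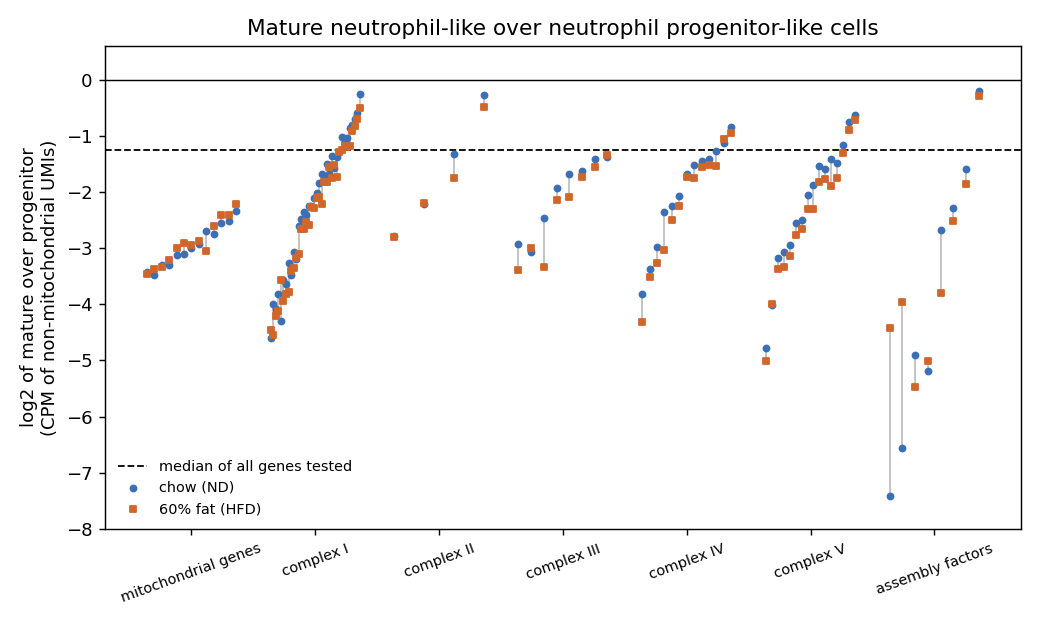
Log2 of the level in mature neutrophil-like over neutrophil progenitor-like cells, in CPM of non-mitochondrial UMIs, for each member with enough UMIs, with a circle for the ND and a square for the HFD library joined by a line, and a dashed line at the median of all genes measured (-1.26). All 13 mitochondrial genes lie below that line, Atp5g1 (-4.89) lies lowest in complex V, and the assembly factors with the lowest values and the widest gap between libraries rest on few UMIs in mature cells.

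Gene lists outside the prefixes were measured in the same contrast. The same minimum applied, which a gene could pass through the progenitors alone. Of the mitochondrial ribosomal protein genes, 66 of 72 were 2-fold lower in mature neutrophil-like cells (median -3.34), as were 16 of 17 genes of mitochondrial transcription, RNA processing and translation (-3.35). In mature over immature cells 29 and 4 of these genes had enough UMIs. Of them 14 and 3 were lower, and 1 and 0 higher. Of the tricarboxylic acid cycle genes, 16 of 18 were lower (-2.36), and of carriers and pores 11 of 14, with 1 higher, the uncoupling protein Ucp2 (1.61). Of the assembly factors outside the prefixes, 19 of 25 were lower (-1.74). Of the glycolysis genes, 5 of 17 were lower and 2 higher, with a median of -0.27. Over all genes 52.5% were lower and 14.4% higher, with a median of -1.26. The 2 higher genes were Slc2a3, a glucose transporter (7.35), and Slc16a3, a lactate exporter (3.41). Of the regulators of mitochondrial biogenesis, 4 of 10 were lower.

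In the B lineage the arms differed in direction. From pro- and pre-B-like to B cell-like cells the mitochondrial arm went from 88.5 to 116 per 1000 (ND) and from 80.5 to 116 (HFD), a log2 of 0.39 and 0.53. The nuclear arm went from 19.9 to 11.7 and from 20.7 to 11.5, a log2 of -0.76 and -0.85. Of 54 nuclear members with enough UMIs, 14 were at least 2-fold lower (18.6% of all 1787 genes), none was 2-fold higher (9.63% of all genes were), and none of the 12 mitochondrial members passed 2-fold. The median member stood at -0.88 in the nuclear and 0.41 in the mitochondrial arm, and the median gene at -0.28. With median-of-ratios scaling the directions of these medians were the same, at -0.64 and 0.66. Under that scaling 5 of the 54 nuclear members were 2-fold lower (9.26%), a smaller share than over all genes (13.3%). Of the 12 mitochondrial members 1, mt-Nd2, was then 2-fold higher. An unnamed cluster (23), led by Ms4a1, Vpreb3 and Cd79a, lay between the classes, with 9.90% and 9.63% mitochondrial UMIs and 13.9 and 13.6 nuclear UMIs per 1000. Median UMI counts were 5888 and 5294 in the pro- and pre-B-like and 2154 and 2028 in the B cell-like cells.

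Among the members, mt-Nd2 differed most in the mitochondrial arm, from 6014 (ND) and 5623 (HFD) CPM in pro- and pre-B-like to 11188 and 10727 in B cell-like cells (0.91). All 12 mitochondrial members were above 0. In the nuclear arm Ndufb6 (-1.51) and Ndufs5 (-1.49) of complex I lay lowest, followed by Cox5a of complex IV (-1.40). Atp5g3 went from 1051 and 1101 to 432 and 424 (-1.33). At the other end, Sdha, the catalytic subunit of complex II, was nearly level (-0.14). Atp5d of complex V was above 0 in both libraries (0.33 in the ND and 0.06 in the HFD library), and Ndufa6 of complex I stood at -0.02 and 0.18.

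Plasma cell-like cells, with 61.3 and 57.7 mitochondrial UMIs per 1000, lay 1.896-fold and 2.02-fold below B cell-like cells, and 1.29-fold and 1.24-fold below in the nuclear arm. Of 37 nuclear members 1 was 2-fold lower, Cox7a2l (-1.36), where 50% of all genes were. Of the 12 mitochondrial members 4 were, mt-Nd1, mt-Nd2, mt-Nd5 and mt-Atp8. Ndufa1, an accessory subunit of complex I, stood higher in plasma cell-like cells, at 395 and 482 CPM against 221 and 190 in B cell-like cells. These directions depend on the scale: under median-of-ratios scaling the median nuclear member was at 0.70 and the median mitochondrial member at 0.11 in plasma cell-like over B cell-like cells.

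Isoforms of complex IV and V subunits were spread unevenly over the classes. Cox6a2, the heart and muscle isoform of subunit VIa, stood at 964 (ND) and 973 (HFD) CPM in plasmacytoid dendritic-like cells, where 68.7% and 69.6% of cells had a UMI. It made up 66.9% and 64.6% of the UMIs of Cox6a1 and Cox6a2 there, and that class held 90.3% and 89.3% of its UMIs over the classes. The next classes were plasma cell-like (59.2 and 36.1) and HSPC-like cells (57.1 and 80.3). These levels rest on a minority of cells. A UMI was present in 11.4% and 7.41% of plasma cell-like cells (16 and 10 cells) and in 14.4% and 18.1% of HSPC-like cells. In erythroid-like cells, with a median of 23312.5 and 18357 UMIs, 0.592% and 0.810% of cells had a UMI. The exon of Cox6a2 overlaps Itgad on the opposite strand. Cox6a2 was on the marker list of plasmacytoid dendritic cells, but no member was used to cluster or name cells. Its libraries differed little in that class (0.01), and in HSPC-like cells it was higher in the HFD library (0.49).

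Cox6b2, known as the testis isoform of subunit VIb, had its highest level in erythroid-like cells, 241 (ND) and 200 (HFD) CPM, with a UMI in 74.96% and 68.4% of cells. Megakaryocyte-like cells followed at 79.4 and 74.2, and T cell-like cells lay at 3.40 and 2.31. It made up 24.5% and 20.8% of the UMIs of Cox6b1 and Cox6b2 in erythroid-like cells. Cox4i2, the hypoxia-linked isoform of subunit IV, was rare, with its highest level in macrophage-like cells at 17.0 and 12.8 CPM (3.82% and 3.13% of the Cox4i pair). Cox7a1, the muscle isoform of subunit VIIa, reached at most 7.495 CPM, in pro- and pre-B-like cells. Cox7a2l, a factor that joins complexes III and IV into supercomplexes, departed from the usual order at the upper end, with its highest level in T cell-like cells (523 and 498). Its lowest levels, nearly alike, were in immature (124 and 126) and mature neutrophil-like cells (127.6 and 128.2).

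**Figure D5:**
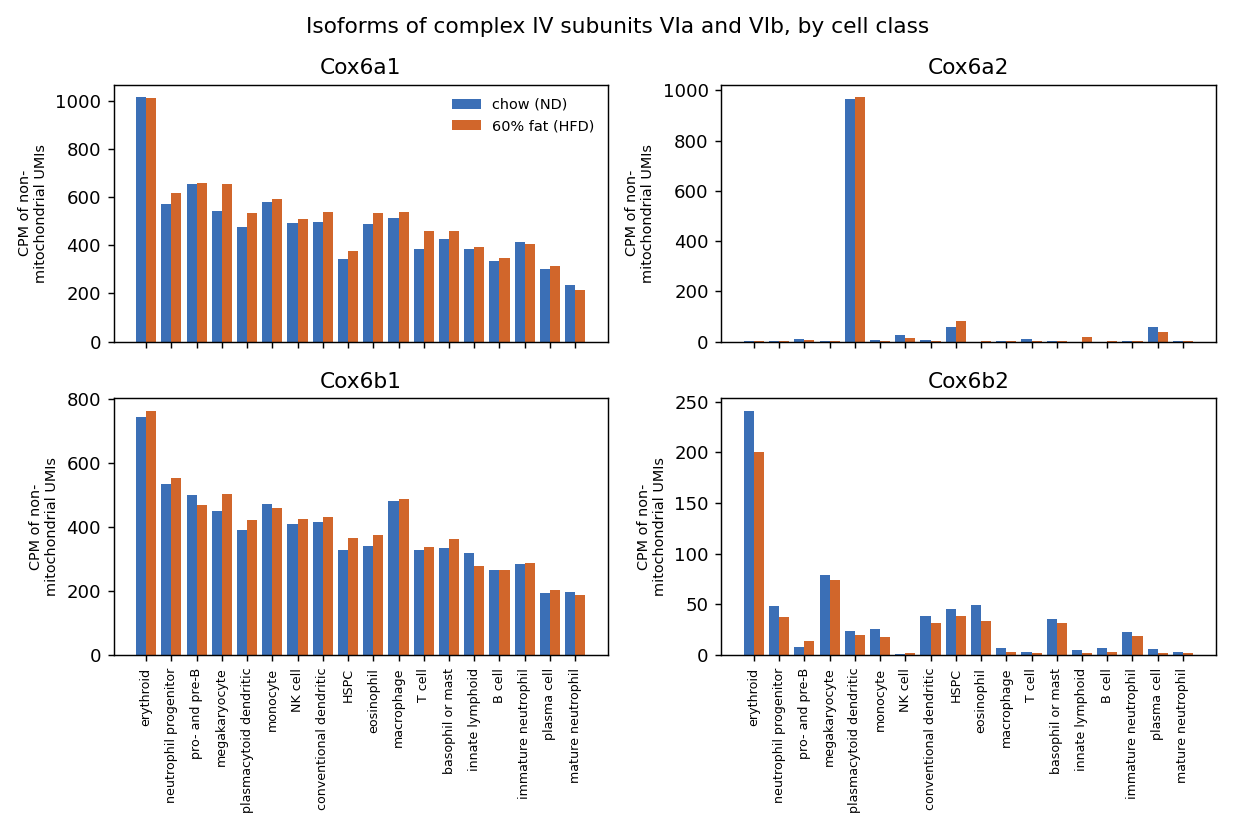
Level in CPM of non-mitochondrial UMIs of Cox6a1, Cox6a2, Cox6b1 and Cox6b2 in the 18 cell classes, with 1 bar per library and the classes ordered by the level of the nuclear arm. Cox6a2 peaks in plasmacytoid dendritic-like cells (964 and 973) and Cox6b2 in erythroid-like cells (241 and 200), while Cox6a1 and Cox6b1 are present in every class.

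Atp5g1 ran from 983 and 1065 CPM in erythroid-like to 21.0 and 20.6 in mature neutrophil-like cells, a wider range than that of Atp5g2 and Atp5g3. Atpif1, the inhibitor of ATP synthase, which lies outside the prefixes, stood at 1575 and 1511 in erythroid-like cells and at 867 and 962 in megakaryocyte-like cells. Ndufa4l2, Cox7b2, Cox8b and Cox8c, isoforms of other tissues, were at or near 0, and a fold is not given for them.

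The other lists had medians near 0 between the diets. The median over classes of the list's median log2 HFD over ND was 0.005 for mitochondrial ribosomal proteins, -0.003 for mitochondrial gene expression, 0.007 for assembly factors outside the prefixes, 0.02 for the tricarboxylic acid cycle, 0.02 for carriers and pores, and 0.05 for glycolysis. For the members the same measure was 0.01 in the nuclear and -0.12 in the mitochondrial arm. Of 732 pairs of mitochondrial ribosomal gene and class, 0.137% were past 1.5-fold higher (Mrps7 in HSPC-like cells) and 0.137% lower (Mrpl4 in immature neutrophil-like cells), against 0.946% and 0.485% over all genes. None of the 220 pairs of the tricarboxylic acid cycle and none of the 187 of mitochondrial gene expression passed in either direction. Of 213 glycolysis pairs, 1.88% were higher, which were Pfkl in megakaryocyte-like and monocyte-like cells, Eno3 in monocyte-like and Pkm in erythroid-like cells, and 0.469% were lower (Gpi1 in plasma cell-like cells). Of 190 pairs of carriers and pores, 1.05% were lower, Mpc1 in conventional dendritic-like and Slc25a4 in eosinophil-like cells, and none was higher. Of 236 pairs of assembly factors outside the prefixes, 0.424% were higher (Cox17 in megakaryocyte-like cells). The regulators of mitochondrial biogenesis had a median of 0.02, and 2.61% of their 115 pairs were higher. All 3 were Esrra, the nuclear receptor ERR alpha, a known regulator of respiratory genes, which stood at 11.02 (ND) and 20.9 (HFD) CPM in neutrophil progenitor-like cells (0.93), 14.5 and 22.1 in immature neutrophil-like cells (0.60) and 14.2 and 21.4 in basophil or mast-like cells (0.59). These genes were named after their values were seen.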

How the data were processed

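Single bone marrow cells of 1 ND and 1 HFD library were analysed from whole-number UMI counts per cell and gene. The counts were deposited by the authors from the BD WTA Rhapsody Analysis Pipeline 1.9.1 with RSEC correction, per the file headers; its aligner, build and annotation were not given in the sources used. The members, lists and rules were chosen with earlier results of these data known. Cells needed 200 or more genes and no more than 25% of their UMIs from mitochondrial genes, and doublets called by Scrublet in scanpy 1.11.5 (412 and 436) were removed. Cells were clustered on 2000 variable genes, 30 principal components, 15 neighbours and Leiden resolution 1, without the members, and clusters named from marker lists where at least 3 were among their top genes. Counts were summed per class and library. A gene was compared with at least 200 UMIs over both libraries in a class (HFD over ND, 1.5-fold), or over both classes in each library (class over class, 2-fold in both libraries). Between classes, a gene could thus enter through 1 of the 2 classes alone. Intervals (95%) are exact conditional binomial and cover counting error only; none is given over classes, which share the libraries. Named genes were all mitochondrial members, the 2 most abundant and 2 widest-ranging members of each complex and of the assembly factors, the 5 highest and 5 lowest medians, members past the fold, and tissue isoforms; others named in class contrasts were chosen after their values were seen. The code was tested on simulated data.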

Additional observations from a re-analysis of the deposited data

How the results depend on the processing

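No paired analysis was possible because each diet had 1 library and the labels carry no replicate numbers, and for the same reason no replicate could be left out. Over the 11 or 12 alternatives run, the median of log2 HFD over ND stayed between -0.13 and -0.11 for the mitochondrial arm, between 0.008 and 0.03 for the nuclear arm and between -0.16 and -0.11 for their ratio. By class, the mitochondrial value of B cell-like cells turned below 0 under 8 of 11 settings and that of mature neutrophil-like cells above 0 under 5 of 11 (-0.48 without the filter on mitochondrial share, against -0.02), and the other classes kept their sign. Macrophage-like cells ran from -0.39 (without that filter) to -0.10, erythroid-like from -0.18 to -0.07, immature neutrophil-like from -0.10 to -0.02, plasma cell-like from -0.12 to -0.02 and basophil or mast-like from -0.08 to -0.02. The nuclear sign turned in eosinophil-like (7 of 12 settings), plasma cell-like (6), NK cell-like (3) and B cell-like cells (2), and once each in T cell-like, erythroid-like, macrophage-like and plasmacytoid dendritic-like cells. Mature over progenitor neutrophil-like cells stayed below 0 in every setting. The nuclear value (-1.94) became -0.69 under median-of-ratios size factors and -1.72 without haemoglobin genes, S100a8 and S100a9. The mitochondrial value (-2.69) became -2.30 without the filter on mitochondrial share, -2.82 with a floor of 500 genes and a 15% mitochondrial limit, -2.79 with members and mitochondrial genes kept for clustering, -2.79 and -2.85 at Leiden resolution 0.5 and 2.0, -2.60 in CPM of all UMIs, -1.44 under median-of-ratios size factors, -2.46 without haemoglobin genes, S100a8 and S100a9, -2.80 as a mean over cells and -2.83 with cells thinned to 1000 UMIs. The count of nuclear pairs past 1.5-fold (3) became 5 without the mitochondrial filter, 5 with members kept for clustering, 55 with a minimum of 20 UMIs and 1 with a minimum of 1000. The cause of these changes was not tested, except that the last 2 admit more and fewer genes. Settings that change the cell filter, the doublets or the clustering also regroup the cells, so their classes do not hold the same cells. Depth limits the nuclear members: 18 of 97 were measured in every class.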
